A study of Drosophila melanogaster with 4 samples.

Results

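The 9 mucin and peritrophin genes described here are Peritrophin-15a, Peritrophin-15b, Muc68D, Muc68E, Muc14A, Muc55B, Muc68Ca, Muc18B and Muc26B. They were taken by their FlyBase symbols from a gene count table of Drosophila melanogaster guts that lists 17807 genes. All 9 were in the table, and all 9 were among the 10795 genes kept after a filter on low counts. RNA had been extracted from dissected guts of females 7 days old. The tested guts were from wh7 females, mutant for dwdr4, which is listed as wuho in the annotation and encodes the Drosophila form of the tRNA methylation cofactor Wdr4. The control guts were from females of the yw strain (WT). There were 2 libraries per genotype, which the study treats as biological replicates, each from a pool of 20 to 30 guts. The wh7 stock had been outcrossed to yw for the lifespan assays. Whether the sequenced flies came from that outcross is not given in the sources used here, so the wh7 mutation and other differences between the strains cannot be told apart. The set was put together with results of the same wh7 against WT comparison known. The levels and fold changes of the 9 genes are therefore given as a description. Where calls among them are counted, the counts stand beside the share over all genes and are no evidence about the set.

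The adult fly midgut is lined by the peritrophic matrix, a sleeve of chitin and glycoproteins that separates food and microbes from the epithelium. Peritrophins are secreted proteins that bind chitin through cysteine-rich domains. Mucins are proteins with long stretches rich in serine, threonine and proline that carry dense O-linked sugars, and secreted mucins hold water and form the slippery coat of the gut surface. Chitin synthases, chitinases and glycosyltransferases of the epithelium make, trim and decorate these components.

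The counts summed to between 94559036 and 101610356 per library in wh7 and between 93603837 and 94150194 in WT. The mutated gene wuho had 2 and 3 counts in the wh7 libraries, against 1489 and 1256 counts in the WT libraries, so the libraries went with their labels. Levels are given as CPM, the count of a gene per 1000000 counts of its library after scaling by TMM, edgeR's correction for differences in library composition. Fold changes are edgeR's log2 values, wh7 over WT, with a standard error (SE). Over all 10795 genes tested, 52 had an adjusted p under 0.05, and the median log2 fold change was -0.02. The WT libraries lay farther from each other than the wh7 libraries: 143 genes differed more than 2-fold between the wh7 libraries and 783 between the WT libraries, of 8896 genes with a mean of at least 100 counts. A two-sided exact permutation test of a single value over these 4 libraries could give no p below 0.333.

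The guts of both genotypes held RNA of several cell types, and the summed CPM of marker genes differed between them. The 5 enterocyte markers, all in the table, summed to 36063 and 31993 CPM in wh7, against 18124 and 25965 CPM in WT. Most of that sum was Amy-p, an amylase, with 28857 and 24826 CPM in wh7, against 10512 and 17511 CPM in WT, and nub and Npc2f were also higher in both wh7 libraries. The trypsin gene betaTry went the other way without overlap, with 6284 and 6226 CPM in wh7, against 6869 and 7631 CPM in WT, and Myo31DF overlapped. The 5 enteroendocrine markers, also all in the table, summed to 135 and 139 CPM in wh7, against 291 and 280 CPM in WT, and each of the 5 was lower in both wh7 libraries. The 4 fat body markers, which include yolk proteins Yp1 and Yp2, summed to 3213 and 3633 CPM in wh7, against 5600 and 8338 CPM in WT. Nearly all of it was Yp1 and Yp2. Lsp2 was also lower in both wh7 libraries, but Fbp1 was higher, with 1.23 and 2.20 CPM in wh7, against 0.0409 and 0.488 CPM in WT. The 3 copper cell markers summed to 406 and 423 CPM in wh7, against 341 and 257 CPM in WT. The 2 hindgut markers summed to 101 and 99.2 CPM in wh7, against 148 and 126 CPM in WT, a difference carried by byn, since Fas2 overlapped. The 2 tracheal markers differed slightly in the same direction, with 14.6 and 14.9 CPM in wh7, against 16.4 and 16.2 CPM in WT. Both testis markers and both larval salivary gland markers were at 0 in all 4 libraries, and the 4 ovary markers summed to at most 1.17 CPM in any library. The sums of the 4 visceral muscle, 2 hemocyte and 2 Malpighian tubule markers overlapped between the genotypes. Of the 4 progenitor markers 3 were analysed, and they differed among themselves. Delta had 12.0 and 10.9 CPM in wh7, against 13.2 and 20.2 CPM in WT. Headcase, listed as heca, had 9419 and 10589 counts in wh7, against 7804 and 7479 counts in WT. The genotypes overlapped in klu. The remaining marker, esg, was left out because its current gene identifier could not be matched to the count table. FBgn0001981, taken here as its earlier identifier, had 39.5 and 33.1 CPM in wh7, against 47.7 and 48.5 CPM in WT. In bulk RNA, fewer cells of a type and less RNA per cell cannot be told apart, and the part of these marker differences in the values below was not tested.

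Of the 9 genes, 5 were lower in both wh7 libraries than in either WT library, 2 were higher in both, and 2 overlapped. Over all genes tested, 22.9% were lower without overlap and 23.8% were higher without overlap. The 5 lower genes were Muc14A, Muc26B, Muc18B, Muc68D and Muc55B. The 2 higher genes were Muc68E and Peritrophin-15a. Muc68Ca and Peritrophin-15b overlapped. The median log2 fold change of the 9 genes was -1.03, also with the gene that had no counts in wh7 set at its bound. At an adjusted p under 0.05 there was 1 of the 9, Muc14A, beside 0.482% of all genes tested. This count of 1 became 6 with DESeq2's Wald test, while the count over all genes went from 52 to 798. Both edgeR counts also changed when any 1 library was left out. At an unadjusted p under 0.05 there were 5 lower genes, beside 7.32% of all genes tested, and 1 higher gene, beside 7.23%. Muc26B is among these 5 and among the 6 of DESeq2, though it passed the filter on low counts only through the WT libraries. The set was chosen on this contrast, so nothing is read from these counts.

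**Figure D1:**
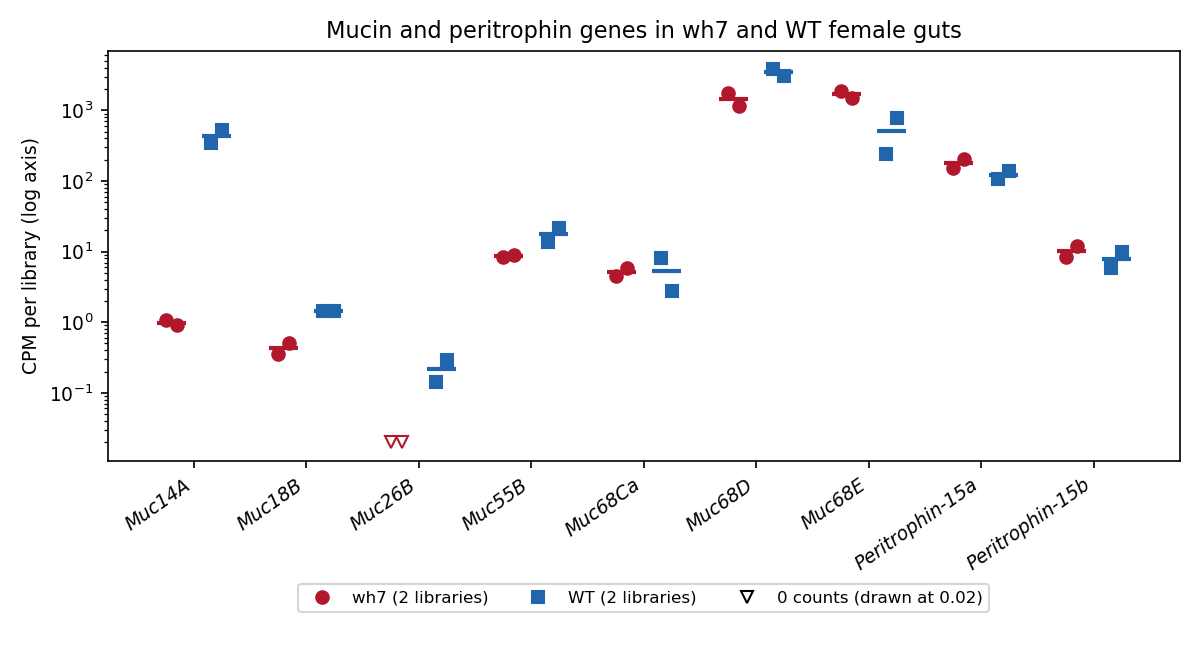
CPM of each of the 9 genes in each library on a log axis, with wh7 as red circles left of WT as blue squares, short lines at the mean where neither library is at 0, and open triangles for libraries with 0 counts. Muc14A lies near 1 CPM in wh7, at 1.06 and 0.903, and far higher in WT, at 350 and 526. Muc68D and Muc68E lie near each other in wh7 and far apart in WT.

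Peritrophin-15a and Peritrophin-15b are neighbouring genes on chromosome arm 2L with coding lengths of 276 and 279 bases. They are named after a small peritrophin of the blowfly Lucilia cuprina, where the protein binds chitin in the matrix. Peritrophin-15a had 153 and 202 CPM in wh7, against 106 and 138 CPM in WT. Both wh7 libraries lay above both WT libraries, but the nearest libraries of the genotypes differed only 1.11-fold, less than the 1.32-fold between the wh7 libraries and the 1.30-fold between the WT libraries. The log2 fold change of Peritrophin-15a was 0.54 (SE 0.22).

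Peritrophin-15b had 8.50 and 11.9 CPM in wh7, against 5.91 and 9.77 CPM in WT. The genotypes overlapped, and the log2 fold change was 0.38 (SE 0.33). Its annotated antisense partner, asRNA:CR45343, had 0 counts in all 4 libraries. The ratio of Peritrophin-15a to Peritrophin-15b was 18.0 and 16.9 in wh7, against 18.0 and 14.1 in WT, and it too overlapped. Whether reads that match both neighbours were counted for either is not given in the sources used here.

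Muc68D and Muc68E had the highest mean CPM of the 9 genes in both genotypes, though Muc14A, at 350 CPM, was above Muc68E, at 239 CPM, in WT replicate 1. Both lie on arm 3L and have 2 exons each, with coding lengths of 4542 bases for Muc68D and 5397 bases for Muc68E. Muc68D had 1734 and 1138 CPM in wh7, against 3807 and 3115 CPM in WT. Both wh7 libraries were below both WT libraries, with a gap of 1.80-fold between the nearest libraries, wider than the 1.52-fold within wh7 and the 1.22-fold within WT. The mean level of Muc68D was 2.41-fold lower in wh7, a log2 fold change of -1.27 (SE 0.27).

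Muc68E differed in the other direction. It had 1873 and 1486 CPM in wh7, against 239 and 789 CPM in WT. Both wh7 libraries were above both WT libraries, but the WT libraries differed 3.30-fold from each other, more than the 1.88-fold gap between the genotypes. The mean was 3.27-fold higher in wh7, a log2 fold change of 1.71 (SE 0.61). The size depended on which WT library was used: its log2 fold change was 2.81 once WT replicate 2 was left out, and 1.09 once WT replicate 1 was.

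The pair was also compared within each library. Muc68E stood at 1.08 and 1.31 times the CPM of Muc68D in wh7, against 0.0629 and 0.253 times in WT. Levels of different genes are compared roughly by CPM per kilobase (kb) of coding length. Per kb, Muc68E stood at 0.909 and 1.10 times Muc68D in wh7, against 0.0529 and 0.213 times in WT. The 2 genes were at nearly equal level in wh7 guts, and Muc68D was well above Muc68E in both WT libraries.

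Muc14A (FBgn0052580) is a very long gene on the X, with 14 exons and a coding length of 48669 bases. It had 99 and 93 counts in wh7, against 34194 and 47376 counts in WT, or 1.06 and 0.903 CPM in wh7 and 350 and 526 CPM in WT. The wh7 libraries differed 1.18-fold from each other and the WT libraries 1.50-fold, while the nearest libraries of the 2 genotypes differed 329-fold. The mean was 445-fold lower in wh7, a log2 fold change of -8.80 (SE 0.35) that stayed between -9.06 and -8.48 after removal of any 1 library. Among all genes tested, 11 had a lower log2 fold change than Muc14A. Reads of Muc14A were not absent in wh7: both wh7 libraries held far more than 3 counts, the floor set here for a library at 0. Per kb, Muc14A had 0.0218 and 0.0186 CPM in wh7, against 7.19 and 10.8 CPM in WT.

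Muc55B, on 2R, had 8.45 and 8.82 CPM in wh7, against 13.8 and 21.6 CPM in WT. Both wh7 libraries were lower, and the 1.56-fold gap between the genotypes was close to the 1.57-fold difference between the WT libraries. The log2 fold change of Muc55B was -1.03 (SE 0.27). Muc68Ca, a single-exon gene on 3L with a coding length of 9405 bases, had 4.50 and 5.85 CPM in wh7, against 8.06 and 2.73 CPM in WT. The wh7 values of Muc68Ca lay between the WT values, and its log2 fold change of -0.06 (SE 0.56) turned to 0.92 without WT replicate 1, 0.11 without wh7 replicate 1 and 0.12 with a replicate block, so no direction is given for it.

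Muc18B and Muc26B were near the bottom of the range. Muc18B, a single-exon gene on the X, had 33 and 53 counts in wh7, against 142 and 130 counts in WT. Both wh7 libraries were lower, with a gap of 2.80-fold, and the log2 fold change was -1.73 (SE 0.36). Muc26B, on 2L, had 0 counts in both wh7 libraries, against 14 and 26 counts in WT. With a floor of 3 counts per library, its level was at least 7.04-fold lower in wh7. Muc26B passed the filter on low counts only through the WT libraries and was not tested without WT replicate 2.

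**Figure D2:**
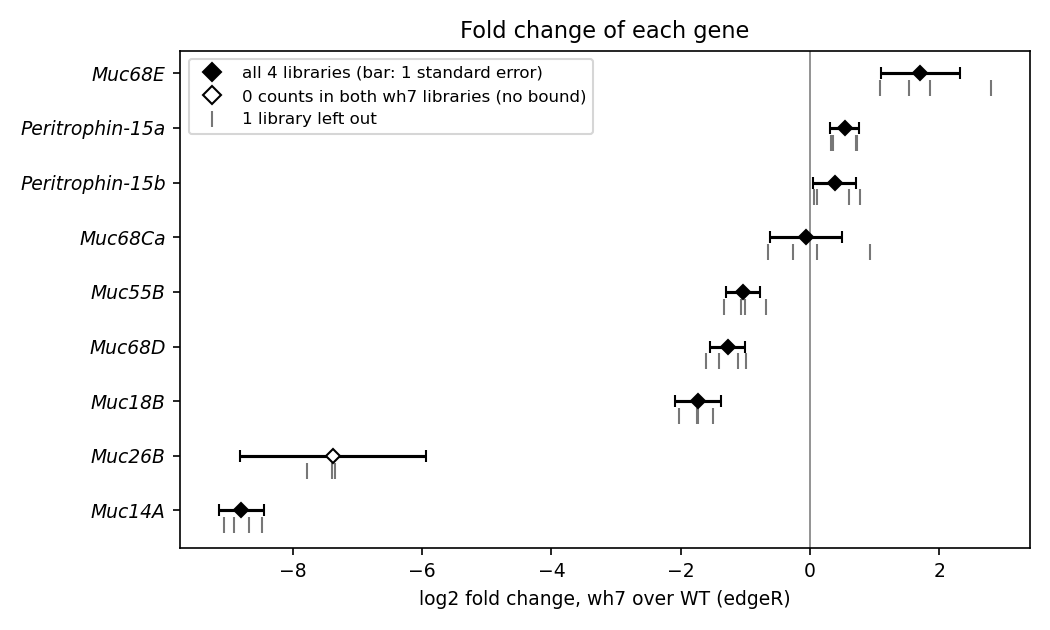
Log2 fold change, wh7 over WT, of each of the 9 genes with bars of 1 standard error, and grey ticks for the values after leaving out 1 library. Muc14A lies at -8.80 with all its ticks below -8, Muc68Ca has ticks on both sides of 0, and the open diamond of Muc26B is a fitted value for a gene with 0 counts in wh7 and no bound.

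Muc14A, Muc18B and Muc68D, all lower in wh7, had a gap between the genotypes wider than the differences within both genotypes. For Muc55B, Muc68E and Peritrophin-15a the gap was not wider than both, and Muc26B had no counts in wh7. The share of all genes with such a gap was not computed. The set was chosen on this contrast, so nothing is read from these gaps.

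The 9 genes differed widely in level per kb. Coding length leaves out the untranslated ends of a transcript, which raises the values of the short peritrophins most. Peritrophin-15a has 276 coding bases in a transcript of 361, and Peritrophin-15b has 279 in 428. Muc68D has 4542 in 4802. The ranks and shares per kb hold within this limit. Ranked among 10043 protein-coding genes tested, Peritrophin-15a stood at place 260 in wh7 and 338 in WT. Muc68D stood at place 464 in wh7 and 198 in WT, and Muc68E at place 470 in wh7 and 1230 in WT. Muc14A moved most, to place 9980 in wh7 against 5771 in WT. Muc55B was at place 6446 in wh7 and 5063 in WT, against a median of all ranked genes of 11.9 CPM per kb in wh7 and 12.3 in WT. Muc55B was below that median in both genotypes, with 5.93 CPM per kb in wh7 and 12.1 in WT. So was Muc14A, with 0.0202 CPM per kb in wh7 and 8.99 in WT. Muc68Ca, Muc18B and Muc26B also had less than the median in both genotypes, with at most 1.57 CPM per kb on average in either.

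The sum of the 9 genes per kb was 1322 and 1307 CPM in wh7, against 1308 and 1395 CPM in WT, so the summed level overlapped between the genotypes while its makeup differed. Muc68D made up 28.9% and 19.2% of that sum in wh7, against 64.1% and 49.2% in WT. Muc68E made up 26.3% and 21.1% in wh7, against 3.39% and 10.5% in WT. Peritrophin-15a made up 42.0% and 55.9% in wh7, against 29.4% and 35.9% in WT. The sum without regard to length, which weights long genes more, was lower in wh7, at 3784 and 2854 CPM, against 4532 and 4603 CPM in WT. Muc14A made up 0.0281% and 0.0317% of this second sum in wh7, against 7.72% and 11.4% in WT.

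**Figure D3:**
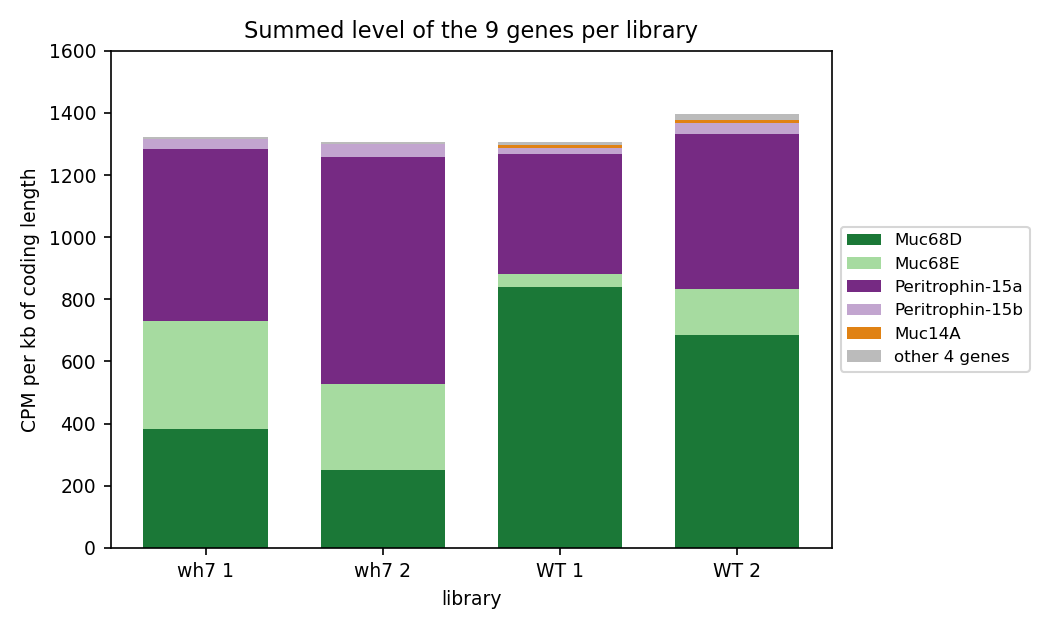
Summed CPM per kb of coding length of the 9 genes in each library, stacked by gene, with the wh7 libraries left of the WT libraries. The bars reach between 1307 and 1395 in all 4 libraries, and the light green block of Muc68E is taller in wh7 while the dark green block of Muc68D is taller in WT.

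The 3 annotated genes on each side of Muc14A were examined for their values, and none overlaps it. Directly before it, CG12698 had 0 counts in both wh7 libraries, against 47 and 51 counts in WT. Directly after it, CG12395 had 0 counts in both wh7 libraries, against 11 counts in each WT library. These were the only 2 of the 6 neighbours at 0 in wh7. Both passed the filter on low counts only through the WT libraries, so no p is given for them. Farther out, vap, a Ras GTPase-activating protein, had 15.4 and 15.6 CPM in wh7, against 29.0 and 53.7 CPM in WT (log2 fold change -1.42, SE 0.33, adjusted p in edgeR 0.180). The next gene on the other side, dpr18, of a family of cell surface immunoglobulin proteins, had 0.826 and 0.369 CPM in wh7, against 1.79 and 2.12 CPM in WT (adjusted p in edgeR 0.238). The outermost neighbours overlapped: CG8939 had 36.3 and 43.8 CPM in wh7, against 77.9 and 25.1 CPM in WT. Nipsnap had 72.6 and 68.1 CPM in wh7, against 59.6 and 70.8 CPM in WT. None of these 4 outer neighbours had an adjusted p under 0.05.

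The 5 tested genes whose pattern over the 4 libraries was nearest to that of Muc14A were CG13325, LysS, CG17147, Top3beta and CG10936. Nearness was the Euclidean distance between log2 CPM values, each gene centred on its own mean, and was 1.13 for CG13325 and 3.08 for CG10936. CG13325 had 3 and 0 counts in wh7, against 4585 and 10480 counts in WT. LysS, a lysozyme, had 48 and 17 counts in wh7, against 15769 and 4465 counts in WT. Top3beta, a topoisomerase, had 29 and 20 counts in wh7, against 3317 and 2480 counts in WT. CG17147 had 33 and 49 counts in wh7, against 3140 and 7478 counts in WT, and CG10936 had 11 and 24 counts in wh7, against 1615 and 2879 counts in WT. All 5 were low in both wh7 libraries and high in both WT libraries, which is what the measure selects.

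Other genes of the matrix and mucus were taken from 4 lists, each without the 9 genes. Like the 9 genes, the lists were chosen with earlier results of these data known. Their counts and medians are therefore a description, also where they stand beside the values over all genes. They are no independent evidence about any of the lists. The first list held 25 genes of peritrophin-like and obstructor proteins that bind chitin. Of its 22 genes tested, 17 had a log2 fold change below 0 and 5 above, with a median of -0.87 beside -0.02 over all genes tested. Only CG5897 had an adjusted p under 0.05, 1 of 22 lower and 0 higher, beside 0.232% lower and 0.25% higher over all genes. Without adjustment, 8 of the 22 had p under 0.05 and were lower, beside 7.32% of all genes tested. The genotypes did not overlap in 14 lower genes and 1 higher gene of the 22, beside 22.9% lower and 23.8% higher over all genes tested. Some of these were near ties. Among the lower genes with no library at 0, the gap between the nearest libraries ran from 1.01-fold for obst-E to 7.23-fold for CG6933.

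CG5897, a chitin-binding protein gene by annotation, had 69 and 75 counts in wh7, against 502 and 635 counts in WT. Both wh7 libraries were lower, with a log2 fold change of -3.05 (SE 0.27, adjusted p in edgeR 0.0466). The call ended without wh7 replicate 1 (adjusted p in edgeR 0.367), without wh7 replicate 2 (0.325), with a replicate block (0.141) and without the filter on low counts (0.0586), and its adjusted p was as low as 4.34e-14 with DESeq2. CG7298 was far more abundant, with 8824 and 11053 counts in wh7, against 51613 and 129190 counts in WT. Its log2 fold change was -3.28 (SE 0.54), and its adjusted p in edgeR was 0.109. CG4835 had 5205 and 4874 counts in wh7, against 17179 and 20724 counts in WT, a log2 fold change of -1.98 (SE 0.20, adjusted p in edgeR 0.0625). Both lay lower in each wh7 library than in either WT library without passing the threshold.

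CG7298 lies in a run of chitin-binding genes on 3L, picked out after its values were seen. The run goes from obst-F over CG7298, CG7290, CG6996 and CG7017 to CG6933, with an antisense RNA and a transposon annotated among them. All 6 had a log2 fold change below 0: -3.47 for obst-F, -3.28 for CG7298, -2.72 for CG7290, -2.29 for CG6996, -2.69 for CG7017 and -4.27 for CG6933. Single libraries set the size of several: obst-F, with 13 and 0 counts in wh7, had -9.23 without wh7 replicate 1 and -2.46 without wh7 replicate 2, and CG7017 had -5.03 and -1.83 under the same omissions. CG6933 had -2.90 and CG7298 had -2.39 without WT replicate 2, and CG6996 had -1.36 without WT replicate 1. In all 6 both wh7 libraries were below both WT libraries, and none had an adjusted p under 0.05. The members differed among themselves: CG6933 had 170 and 176 counts in wh7, against 1288 and 4970 counts in WT, while CG7017 had 349 and 42 counts in wh7, against 1176 and 1317 counts in WT. CG6996 shares exon sequence with the antisense RNA asRNA:CR32224, and obst-F shares it with CG42833 on the opposite strand. Strand use in the counting is not given in the sources used here. Of the 22 listed genes tested, 15 of the 17 on 3L and 2 of the 5 elsewhere had a log2 fold change below 0. The 15 include CG10725, at -0.05 (SE 0.79). The share of all genes below 0 on each arm was not computed, so nothing is read from this split.

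**Figure D4:**
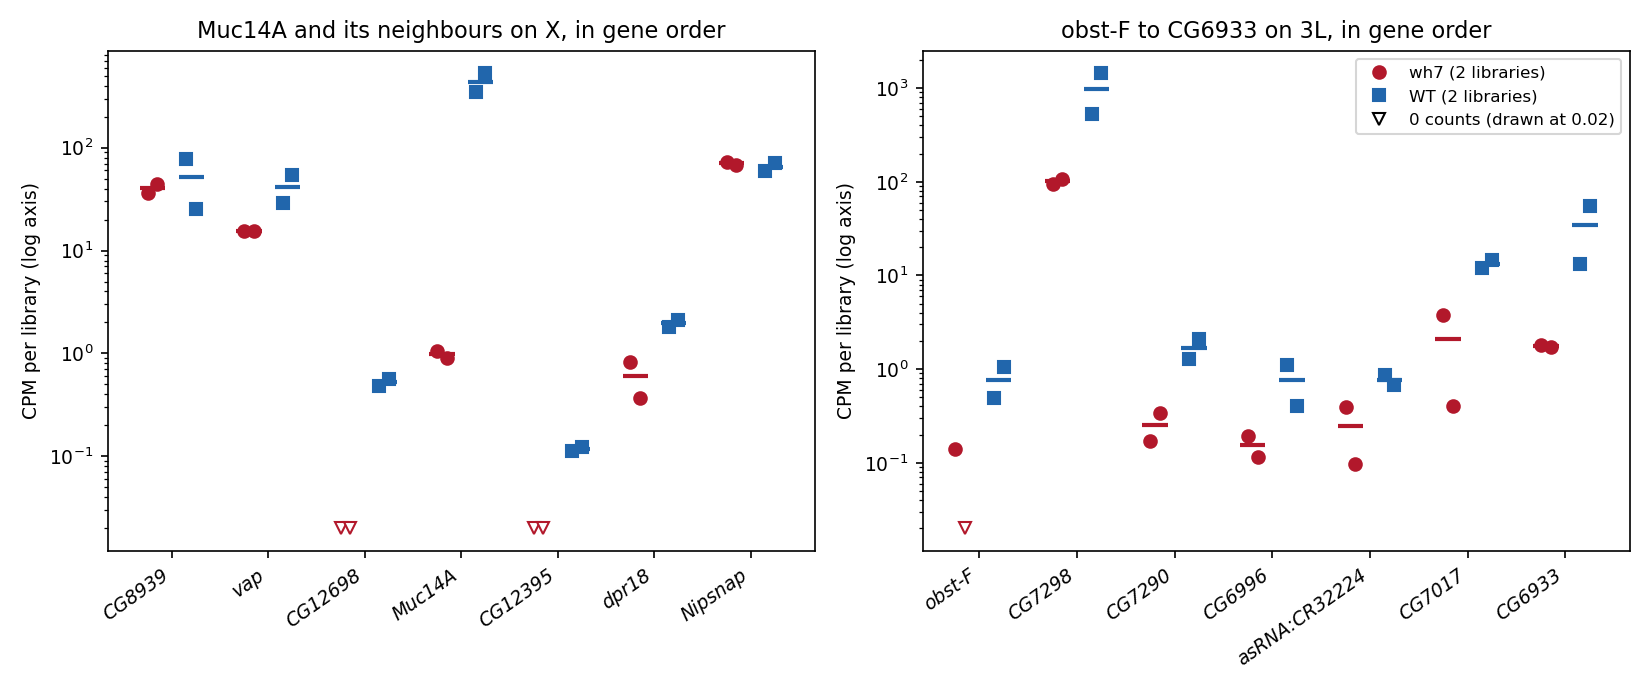
CPM per library on a log axis, wh7 as red circles left of WT as blue squares, for Muc14A with the 3 annotated genes on each side (left) and for the run from obst-F to CG6933 on 3L (right), in gene order, with lines at the mean where neither library is at 0 and open triangles for 0 counts. Of the neighbours of Muc14A, CG12698 and CG12395 are at 0 in both wh7 libraries, and on 3L the wh7 points of all 6 chitin-binding genes lie below the WT points.

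The second list held the 12 other genes named as mucins or mucin-related proteins. Of these, 8 were tested, and 6 had a log2 fold change below 0 and 2 above, with a median of -0.42. None had an adjusted p under 0.05 in edgeR, 3 had an unadjusted p under 0.05 and were lower, beside 7.32% of all genes tested, and 1 was higher, beside 7.23%. DESeq2, run without the filter on low counts, called 3 of the 12 listed genes and 798 genes in all. The share of all genes that it called was not computed. Mur89F had 0 and 3 counts in wh7, against 106 and 500 counts in WT. It is 1 of the 3 lower genes and passed the filter on low counts only through the WT libraries, so no p is given for it. It overlaps an antisense gene, CG5292, that had 1168 and 1144 counts in wh7, against 1176 and 964 counts in WT. Muc11A had 3772 and 6205 counts in wh7, against 11438 and 18507 counts in WT, a log2 fold change of -1.68 (SE 0.37, adjusted p in edgeR 0.164). Muc30E went the other way, with 69 and 131 counts in wh7, against 17 and 22 counts in WT, a log2 fold change of 2.26 (SE 0.49, adjusted p in edgeR 0.164). For Mur89F, Muc11A and Muc30E alike the genotypes did not overlap, and none passed the threshold.

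The third list held genes that make, modify or degrade chitin and proteins that build the matrix, 36 in all, of which 35 were in the table and 34 were tested. A log2 fold change below 0 was seen in 22 and above 0 in 12, with a median of -0.15. At an adjusted p under 0.05 there was 1 lower gene, Cht8, and no higher gene, beside 0.232% lower and 0.25% higher over all genes tested. At an unadjusted p under 0.05, 9 were lower, beside 7.32% of all genes tested, and 4 were higher, beside 7.23%. The list shares 5 genes with the list of chitin-binding genes.

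Cht8, a chitinase that cleaves chitin chains, had 2956 and 2995 counts in wh7, against 9431 and 9095 counts in WT. Both genotypes were tight, and the log2 fold change was -1.70 (SE 0.14, adjusted p in edgeR 0.0441). The call ended without wh7 replicate 1 (adjusted p in edgeR 0.413), without wh7 replicate 2 (0.485), with a replicate block (0.170) and without the filter (0.0532), and its adjusted p was as low as 2.77e-14 with DESeq2. Cht9, also a chitinase, had 8611 and 7298 counts in wh7, against 24011 and 20204 counts in WT, a log2 fold change of -1.53 (SE 0.19, adjusted p in edgeR 0.0764). Cht8, Cht12, Cht4 and Cht9 are consecutive genes on 2R, and their log2 fold changes were -1.70, -2.09, -1.36 and -1.53. That arrangement was picked out after the values were seen. Cht8 and Cht12 share exon sequence on opposite strands, and Cht12 had only 24 and 27 counts in wh7, against 99 and 109 counts in WT. Cht9 overlaps the antisense RNA asRNA:CR44703, which had 6 counts in each wh7 library, against 66 and 39 counts in WT.

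Of the 10 chitinases tested, 8 had a log2 fold change below 0 and 2 above. Those below 0 ran from -2.09 (SE 0.36) for Cht12 to -0.00465 (SE 0.23) for Cht11. The 2 above 0 were Cht7, at 2.28 (SE 0.78), and Cht6, at 0.90 (SE 0.32). All 6 imaginal disc growth factors, secreted proteins related to chitinases that do not cleave chitin, had a log2 fold change below 0. Their median was -0.37, and they ran from -1.49 for Idgf3 to -0.05 (SE 0.58) for Idgf5. Of these, Idgf3 had 2609 and 2432 counts in wh7, against 6685 and 6930 counts in WT, a log2 fold change of -1.49 (SE 0.17, adjusted p in edgeR 0.0679). Chs2, the chitin synthase of the midgut, had 34669 and 34334 counts in wh7, between the 21500 and 41794 counts of the WT libraries (log2 fold change 0.05, SE 0.39). The other chitin synthase, kkv, which serves cuticle and trachea, had 73 and 88 counts in wh7, against 38 and 46 counts in WT (log2 fold change 0.86, SE 0.37). The 3 listed enzymes of the chitin precursor pathway, Gfat2, mmy and nst, had log2 fold changes of 0.63 (SE 0.22), -0.14 (SE 0.25) and 0.46 (SE 0.24). Crys, drosocrystallin of the matrix, had 125 and 183 CPM in wh7, against 160 and 211 CPM in WT, and its genotypes overlapped. Tg, the transglutaminase that cross-links drosocrystallin, had 14.3 and 14.4 CPM in wh7, against 18.8 and 25.9 CPM in WT. Chs2, kkv, the precursor enzymes, Crys and Tg did not reach an adjusted p under 0.05. These genes, and the groups of chitinases and imaginal disc growth factors, were chosen for their roles after the values were seen.

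The fourth list was written as 17 names of enzymes of mucin-type O-glycosylation, which gave 13 genes in the table, all tested. These were 10 polypeptide GalNAc transferases, which place the first sugar on serine or threonine, and 3 enzymes that extend it. A log2 fold change below 0 was seen in 11 and above 0 in 2, with a median of -0.36 and a range between -0.86 and 0.21. None had an adjusted p under 0.05 with edgeR or DESeq2, and 4 had an unadjusted p under 0.05 and were lower, beside 7.32% of all genes tested. In 9 both wh7 libraries were below both WT libraries, beside 22.9%. The gap between the nearest libraries of these 9 ran from 1.01-fold for C1GalTA to 1.37-fold for Pgant4. GlcAT-P, a glucuronyltransferase, had 2980 and 2825 counts in wh7, against 4247 and 3885 counts in WT, a log2 fold change of -0.54 (SE 0.15, adjusted p in edgeR 0.230). Pgant7 had 27.8 and 23.3 CPM in wh7, against 39.8 and 35.9 CPM in WT, a log2 fold change of -0.57 (SE 0.17). Pgant6 had 152 and 160 CPM in wh7, against 198 and 210 CPM in WT, a log2 fold change of -0.39 (SE 0.13).

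**Figure D5:**
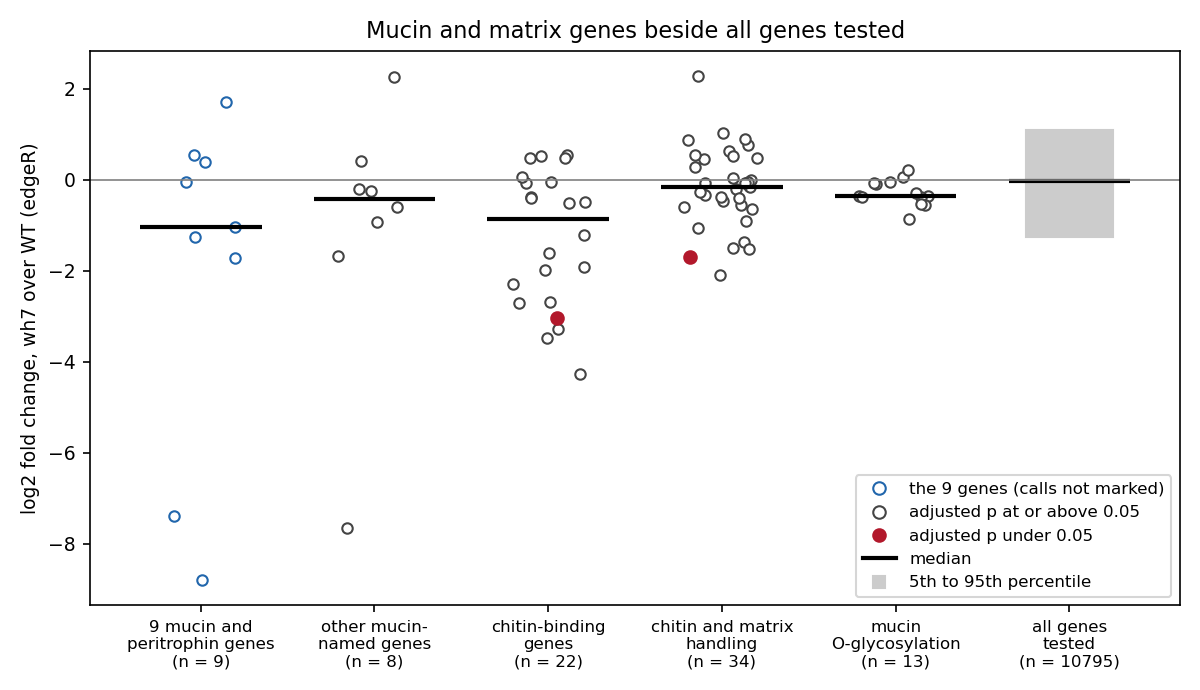
Log2 fold change, wh7 over WT, of each tested gene of the 9 mucin and peritrophin genes and of the 4 lists, with black lines at the medians, filled points for listed genes with an adjusted p under 0.05 (calls are not marked among the 9 genes), and a grey box over the 5th to 95th percentile of all 10795 genes tested. The medians are -1.03, -0.42, -0.87, -0.15 and -0.36 from left to right, beside -0.02 for all genes, and the filled points are CG5897 and Cht8.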

How the data were processed

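Per the labels, the authors used Trimmomatic 0.36, HISAT2 and StringTie 2.1.4 for trimming, alignment and quantification. They deposited a table of raw counts, whole numbers without any normalization. The genome build, the use of strand and how StringTie's estimates became counts are not given in the sources used here. The authors' own comparison table, with log2 fold changes, p-values and rounded normalized counts, was not used.

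The software was edgeR 4.0.16 with limma 3.58.1, and DESeq2 1.42.0 as an alternative, in R 4.3.3. The filter on low counts was filterByExpr (10795 of 17807 genes kept), and scaling was by TMM. The main test was the quasi-likelihood test of edgeR, fitted on genotype alone, with Benjamini-Hochberg adjustment across the tested genes. The SE was computed from the log2 fold change and the F statistic. Pattern distances used log2(CPM + 0.5). A symbol was found for 17710 gene identifiers and not for 97. Coding lengths, chromosome arms and gene order are from the BDGP6.54 annotation, and no coordinates are given. The procedure was tested on simulated counts.

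The 9 genes and the lists were chosen with earlier results of these data known. Named were the 9 genes, and of each list the 3 genes with the smallest p plus any other below an adjusted p of 0.05. Also named were the 3 annotated genes on each side of a member with an adjusted p under 0.05 and the 5 genes nearest to it in pattern. Other genes are given as chosen after their values were seen. Alternatives were DESeq2, RLE scaling, no filter, a replicate block and leaving out each library.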

Additional observations from a re-analysis of the deposited data

How the results depend on the processing

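The number of genes with an adjusted p under 0.05 varied with the test and the libraries. Over all genes it was 52 with edgeR, 798 with DESeq2 and 30 without the filter on low counts, and between 0 and 921 when a library was left out: 0 without either wh7 library, 401 once WT replicate 1 was left out and 921 once WT replicate 2 was. The lone library of a genotype is then assumed to vary like the other genotype. Of the 9 mucin and peritrophin genes it was 1 with edgeR, 6 with DESeq2 (5 lower and 1 higher) and between 0 and 2 with a library left out. Of the chitin-binding genes it was 1 with edgeR, 7 with DESeq2, 0 without the filter and between 0 and 5 with a library left out. Of the chitin and matrix handling genes it was 1 with edgeR, 7 with DESeq2, 0 without the filter and between 0 and 7 with a library left out. Of the other mucin-named genes it was 0 with edgeR, 3 with DESeq2 and between 0 and 2 with a library left out. It was 0 for the O-glycosylation genes under all settings run. DESeq2 was run without the filter on low counts, and the share of all genes that it called was not computed.

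With the replicate number as a replicate block, the count was 0 over all genes, 0 of the 9 genes, 0 of the chitin-binding genes and 0 of the handling genes. Libraries of the same number did not deviate together (correlation -0.26), so the numbers are not taken to pair them. With the numbers crossed, an alternative added after seeing the data, the counts were 99 over all genes, 1 of the 9 genes, 2 of the chitin-binding genes and 2 of the handling genes.

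The direction of Muc68Ca turned from -0.06 to 0.12 with either block, 0.11 without wh7 replicate 1 and 0.92 without WT replicate 1, within a range of -0.65 to 0.92 over the 4 fits that leave out a library. The median of the handling genes turned from -0.15 to 0.000627 without WT replicate 2, within a range of -0.25 to 0.000627. The other 8 genes kept their direction under every alternative that could be fitted. Muc26B could not be fitted without WT replicate 2. Under RLE scaling no direction turned, and every count stayed within 1.5 times of the one with TMM. The cause of these differences was not tested. Of the 9 genes Muc26B, with no counts in wh7, had the largest SE, 1.44.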
